A study of Mus musculus with 8 samples.

Results

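Whole-transcriptome RNA sequencing of mouse brain compared Ep1 libraries labelled as PDT at 10 J/cm2 with Ctrl libraries labelled as untreated. The comparison took the 2 Ep1 libraries whose label gives 10 J/cm2 (Ep1 1 and Ep1 2) and all 4 Ctrl libraries, which are 6 of the 8 libraries of the study, the other 2 being Ep1 at 20 J/cm2. Within these libraries it took every gene whose mean FPKM was 1 or more in Ep1 or in Ctrl, which was 14728 of the 55780 genes in the table. FPKM counts the fragments of a gene relative to its length and to the total of its library. All mice were C57BL/6, with no transgene or deletion named, and the labels name the material both as brain tissue and as brain microvessel endothelial cells. The abbreviation PDT is not spelled out. The series title mentions a treatment with MNP, and the design text mentions magnetic force. What the treated samples received beside the 10 J/cm2 is therefore not settled by the labels. Age, sex, the time between treatment and RNA extraction, and whether the libraries came from separate animals are not given. The p-values therefore measure the spread between these libraries, which may be technical.

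Capillaries of the brain are lined by endothelial cells whose tight junctions and membrane transporters form the blood-brain barrier, and pericytes, astrocyte endfeet and microglia lie against them. Cells under oxidative, heat or mechanical stress turn on sets of genes with known roles, among them haem oxygenase, chaperones, cell cycle inhibitors and immediate early transcription factors. Injured or inflamed brain tissue also makes chemokines, acute-phase proteins and matrix proteins, and glucocorticoid hormones released in stress act on a further set of genes.

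The 6 libraries held between 15704595 and 17772972 fragments, with Ep1 1 and Ep1 2 inside the Ctrl range. Mitochondrial genes took 3.26% and 3.21% of the fragments in Ep1 1 and Ep1 2, and 3.24% to 5.08% in Ctrl, where Ctrl 3 had the highest share. Ctrl 3 stood apart from the other Ctrl libraries. Its genes lay at a median distance of 0.176 (log2) from the mean of the other Ctrl libraries, against 0.0894 to 0.0978 for Ctrl 1, Ctrl 2 and Ctrl 4. The markers matched whole brain more than isolated endothelium. Camk2a, a kinase of excitatory neurons, had 451 and 460.4 FPKM in Ep1, against 434, 427, 436 and 469 FPKM in Ctrl. Cldn5, the main claudin of brain endothelium, had 31.0 and 25.1 FPKM in Ep1, against 24.3, 22.8, 16.2 and 21.0 FPKM in Ctrl. In such bulk RNA, fewer cells of a type and less RNA per cell cannot be told apart.

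Ep1 libraries differed from Ctrl in 1029 genes, 6.99% of those tested, by limma with Benjamini-Hochberg adjustment at 0.05. Of these, 731 genes rose (4.96% of those tested) and 298 fell (2.02%). These shares are the background for the list counts by limma with all 6 libraries. The other counts have other backgrounds. An unadjusted p below 0.05 was reached by 3622 of the 14728 tested genes, in either direction. Limma with voom weights on fragment counts called 1618 genes (10.986%), 1024 higher and 594 lower. Without 1 Ctrl library, 0.933% (without Ctrl 4) to 11.247% (without Ctrl 3) of the tested genes were called. Among genes with an annotated name, the largest increases were in stress and inflammatory genes (Hmox1, Cdkn1a, Ccl3, Ccl4, Hspa1b) and in Nptx2, a neuronal pentraxin. The decreases were mostly smaller, and those of named genes were led by genes of striatal neurons, of barrier transport and of microglia. Changes are given on the log2(FPKM + 1) scale, where those of genes near or under 1 FPKM come out too small. On it, 142 of the genes that rose and 22 of those that fell changed by at least 1. The median change of all tested genes was 0.0067.

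The libraries were not alike in how far they moved. Genes that rose had a median change of 0.743 in Ep1 1 and of 0.56 in Ep1 2 relative to the Ctrl mean, and Ep1 1 was the farther library in 634 of the 731. Among the genes that fell the medians were -0.583 in Ep1 1 and -0.494 in Ep1 2. Over all tested genes, 324 lay at least 1 (log2) above every Ctrl library in Ep1 1 and 141 did in Ep1 2, while 69 and 67 genes lay as far below. The number of calls depended on which library was left out. Without Ep1 1 there were 54 calls (42 higher, 12 lower), and without Ep1 2 there were 628 (509 higher, 119 lower). Without Ctrl 1, Ctrl 2 or Ctrl 4 the calls were 258, 184 and 138, and without Ctrl 3 they were 1652. All 1029 genes kept their direction without each of the 6 libraries in turn, but 39 of them were called every time, 33 higher and 6 lower. Both Ep1 values lay on one side of all 4 Ctrl values in 5789 genes, 39.3% of those tested, and in all 1029 called genes. None of the called genes could therefore change direction when 1 library was left out. An exact two-sided rank-sum test of 2 libraries against 4 cannot go below 0.133, so the calls rest on the spread that limma pools over genes.

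**Figure D1:**
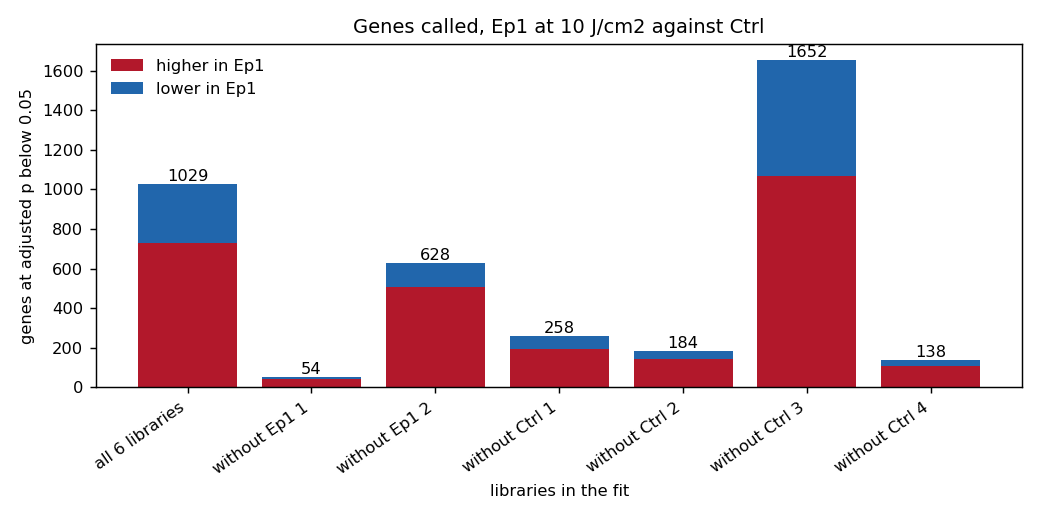
Genes called higher and lower in Ep1 at 10 J/cm2 than in Ctrl with all 6 libraries and without each library in turn, on an axis of numbers of genes. Calls were 1029 with all libraries, 54 without Ep1 1 and 1652 without Ctrl 3.

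The largest increase of all was at a transcribed locus with no gene name, on chromosome 4 from 149433749 to 149439197 (chosen after its values were seen). It had 8.93 and 9.81 FPKM in Ep1, against 0.392, 0.411, 0.603 and 0.533 FPKM in Ctrl, and a change of 2.81 ± 0.10 (SE, limma adjusted p = 0.000372). A second such locus, on chromosome 14 from 32115305 to 32120516, had 4.81 and 6.21 FPKM in Ep1, against 0.188, 0.189, 0.340 and 0.330 FPKM in Ctrl (change 2.36 ± 0.13, SE, limma adjusted p = 0.00225). Both passed the filter through Ep1 and were called without each library in turn, with Ep1 2 above Ep1 1. The 10 called genes with the largest increases and an annotated name were Hmox1, Nptx2, Cdkn1a, Ccl4, Ctla2a, Ccl3, Hspa1b, Tubb6, Hbb-bs and Cd14. Hmox1, the enzyme that breaks down haem and a classical marker of oxidative stress (chromosome 8 from 75093621 to 75100589, GRCm38 as the table's coordinates match it), had 27.2 and 16.7 FPKM in Ep1, against 2.37, 2.18, 2.85 and 2.17 FPKM in Ctrl. Both Ep1 libraries were far above every Ctrl library, and Ep1 1 was the higher. Its change was 2.72 ± 0.19 (SE) on the log2(FPKM + 1) scale (limma adjusted p = 0.00230), 2.39 without Ep1 1, 3.06 without Ep1 2 and 2.69 to 2.78 without 1 Ctrl library. Nptx2, which gathers AMPA receptors at excitatory synapses, had 139 and 77.0 FPKM in Ep1, against 15.4, 15.3, 13.2 and 16.3 FPKM in Ctrl. The 2 Ep1 values were themselves almost a factor of 2 apart, yet the lower of them was over 4 times the highest Ctrl value. Nptx2 changed by 2.70 ± 0.22 (SE, limma adjusted p = 0.00429), by 2.28 without Ep1 1 and by 3.12 without Ep1 2. Ctla2a, a small inhibitor of cathepsin-like proteases, had 11.7 and 10.1 FPKM in Ep1, against 1.59, 1.11, 1.62 and 0.985 FPKM in Ctrl. Its 2 Ep1 values lay close together and its change of 2.36 ± 0.14 (SE, limma adjusted p = 0.00225) was 2.26 without Ep1 1 and 2.46 without Ep1 2. Tubb6, a beta-tubulin with low expression in neurons, had 11.8 and 7.62 FPKM in Ep1 and 2.06, 0.896, 1.22 and 1.12 FPKM in Ctrl. Its change of 2.20 ± 0.23 (SE, limma adjusted p = 0.00680) was 1.92 without Ep1 1, where it was no longer called (limma adjusted p = 0.0699).

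The 10 called genes with the largest decreases and an annotated name include Adora2a, Gkn3, Drd2, Syndig1l, Gpr6, Slco1a4, P2ry12, Gpr52 and Slc22a8. Gkn3, a gastrokine, had 1.13 and 1.02 FPKM in Ep1, against 4.99, 5.36, 5.84 and 6.65 FPKM in Ctrl. The Ep1 values were nearly equal, with a mean of 1.08 ± 0.0765 FPKM (SD, n = 2), far below the Ctrl mean of 5.71 ± 0.719 FPKM (SD, n = 4). Its change was -1.69 ± 0.11 (SE, limma adjusted p = 0.00225), -1.72 without Ep1 1, -1.65 without Ep1 2 and -1.74 to -1.62 without 1 Ctrl library. Gpr52, an orphan receptor, had 1.26 and 1.36 FPKM in Ep1, against 3.56, 3.97, 7.30 and 4.93 FPKM in Ctrl. The highest Ctrl value was that of Ctrl 3. Its change of -1.33 ± 0.23 (SE, limma adjusted p = 0.0268) was -1.15 without Ctrl 3, and it was not called without Ep1 1, Ep1 2, Ctrl 2 and Ctrl 4. The others named at the start are described with their lists. Among predicted genes without such a name (chosen after their values were seen), Gm12371 had 1.89 and 1.5 FPKM in Ep1, against 5.45, 6.30, 7.25 and 7.29 FPKM in Ctrl. Its change of -1.49 ± 0.13 (SE, limma adjusted p = 0.00440) stood beside -1.46 for Drd2, and it was called without each library in turn. Gm22281 (-1.58) and Gm45552 (-1.31) fell too.

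**Figure D2:**
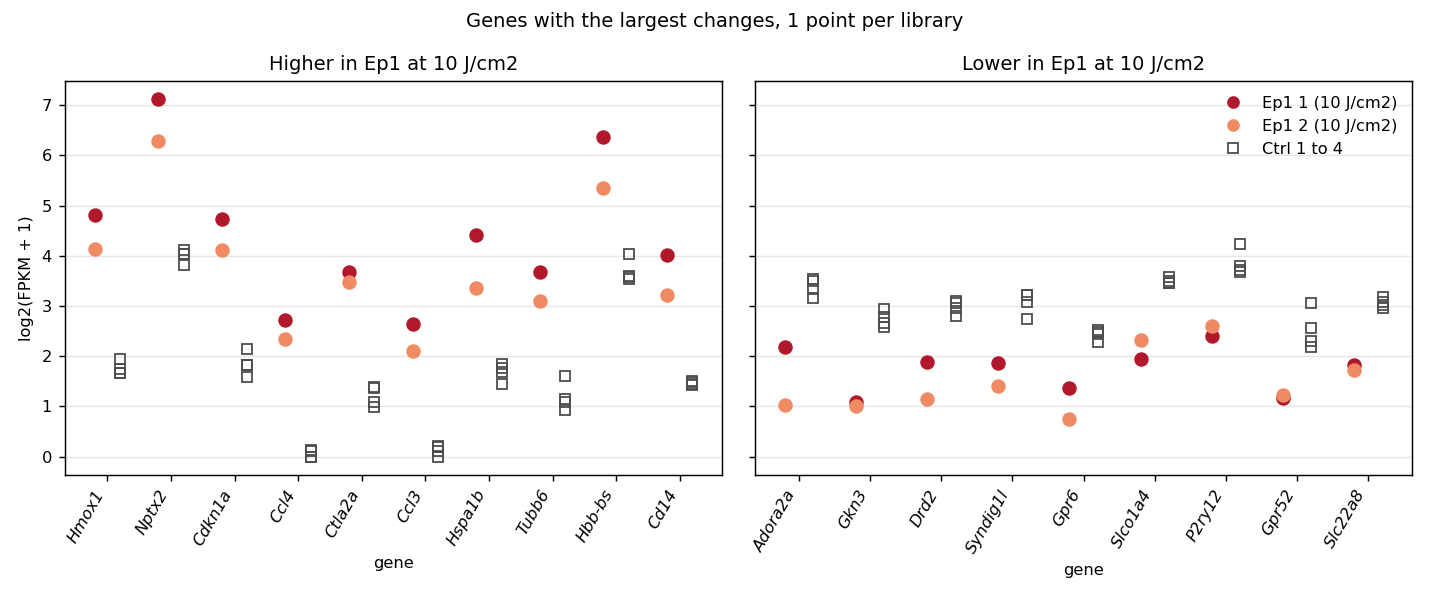
log2(FPKM + 1) of called genes with the largest changes, with the genes that rose in the left panel and those that fell in the right one. Each point is 1 library, filled for Ep1 at 10 J/cm2 and open for Ctrl to its right. Hmox1 had 27.2 and 16.7 FPKM in Ep1 and 2.17 to 2.85 FPKM in Ctrl, and the groups did not overlap for any gene shown.

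Hmox1 is a target of Nrf2, the transcription factor of the oxidative stress response. Of 24 tested Nrf2 targets, 3 rose (Hmox1, Mt1 and Srxn1), which is 12.5%, beside 4.96% of all tested genes. At an unadjusted p below 0.05 the limma fit had 7 higher and 1 lower, and voom weights called 4 higher. Over all 14728 tested genes, 3622 had such a p in either direction, and voom weights called 1024 higher. The median change of the list was 0.079, beside 0.0067 over all genes. Mt1, a metallothionein that binds zinc and copper, had 261 and 232 FPKM in Ep1, against 119, 129.8, 137 and 113 FPKM in Ctrl. Srxn1, which repairs oxidised peroxiredoxins, had 66.4 and 44.4 FPKM in Ep1, against 28.3, 27.5, 28.3 and 29.3 FPKM in Ctrl. Both Ep1 values of each gene were above all Ctrl values. The changes were 0.98 ± 0.10 (SE, limma adjusted p = 0.00725) for Mt1 and 0.92 ± 0.15 (SE, limma adjusted p = 0.0227) for Srxn1. Mt1 was not called without Ep1 1 (change 0.90), and Srxn1 was not called without Ep1 1, Ctrl 1, Ctrl 2 and Ctrl 4 (change 0.63 without Ep1 1 and 0.90 to 0.93 without 1 Ctrl library). The count of Nrf2 targets that rose was 1 without Ep1 1, 5 without Ep1 2, and 2 without Ctrl 1, Ctrl 2 or Ctrl 4 to 4 without Ctrl 3.

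Heat shock proteins refold damaged proteins, and their genes carry heat shock elements bound by the factor Hsf1. Of 22 tested heat shock proteins and co-chaperones, 4 rose, with a list median of 0.18 (0.27 in Ep1 1 and 0.085 in Ep1 2). The 4 that rose were the inducible Hsp70 genes Hspa1a and Hspa1b, the small heat shock protein Hspb1 and the Hsp70 co-chaperone Bag3. The RefSeq promoter windows of these 4 genes, from 250 bases before to 50 after the start of the gene in GRCm38.p6, are shown because every one of them holds the heat shock element GAANNTTC, searched on both strands and set in capitals. The windows lie at chr5:135887669-135887968 on the plus strand for Hspb1, chr7:128523333-128523632 on the plus strand for Bag3, chr17:34959189-34959488 on the minus strand for Hspa1b and chr17:34972107-34972406 on the minus strand for Hspa1a.
Hspb1: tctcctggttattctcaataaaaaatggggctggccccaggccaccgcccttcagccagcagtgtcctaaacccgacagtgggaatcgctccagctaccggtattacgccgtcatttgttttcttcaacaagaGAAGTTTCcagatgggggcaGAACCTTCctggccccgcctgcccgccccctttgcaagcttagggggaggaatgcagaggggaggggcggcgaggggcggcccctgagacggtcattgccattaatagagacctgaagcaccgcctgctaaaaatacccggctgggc
Bag3: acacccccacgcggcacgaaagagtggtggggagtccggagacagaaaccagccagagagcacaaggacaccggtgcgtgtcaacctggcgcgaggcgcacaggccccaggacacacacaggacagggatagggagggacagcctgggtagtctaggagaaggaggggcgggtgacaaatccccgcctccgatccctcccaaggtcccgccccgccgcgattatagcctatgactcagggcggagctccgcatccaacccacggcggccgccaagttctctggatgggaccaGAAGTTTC
Hspa1b: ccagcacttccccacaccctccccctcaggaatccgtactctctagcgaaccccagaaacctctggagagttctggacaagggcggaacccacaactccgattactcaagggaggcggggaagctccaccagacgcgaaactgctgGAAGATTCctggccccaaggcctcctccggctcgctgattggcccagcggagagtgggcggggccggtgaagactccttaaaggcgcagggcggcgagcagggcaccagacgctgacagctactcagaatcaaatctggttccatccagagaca
Hspa1a: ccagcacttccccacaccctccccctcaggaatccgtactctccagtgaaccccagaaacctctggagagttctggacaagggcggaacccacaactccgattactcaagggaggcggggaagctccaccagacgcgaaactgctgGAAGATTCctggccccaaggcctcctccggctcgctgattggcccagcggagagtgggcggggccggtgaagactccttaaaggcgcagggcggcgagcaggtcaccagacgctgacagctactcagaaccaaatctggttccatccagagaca

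The element was present in all 4 genes that rose and in 6 of the 13 heat shock genes not called that had a window. It was present in 7.86% of all 32841 windows of the same length. Here and below, genes are counted by a match in any of their windows, while the shares of all windows count single windows. Hspb1 held 2 matches, and the match of Bag3 lay in the last bases of its window, after the start of the gene. The windows of Hspa1a and Hspa1b differed at 4 of 300 bases. The other 4 motifs were searched in the windows of Nrf2 targets and of immediate early genes. The antioxidant response element TGACNNNGC was present in 1 of the 2 Nrf2 targets that rose and had a window. Hmox1 had none. The element was present in 7 of the 17 targets with a window that were not called and in 12.4% of all windows. Among immediate early genes with a window, the cAMP response element TGACGTCA was present in 1 of 6 that rose (Maff, which had several windows). It was present in 2 of 16 not called (1.79% of all windows). The CArG box was present in 1 of these 6 and 0 of these 16 genes (1.63% of all windows). The AP-1 site TGANTCA was present in 0 of the 6 and 1 of the 16 (7.81% of all windows). Egr3 and Nptx2 rose but had no window. A match describes these letters and does not show that a factor is bound.

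Hspa1b had 20.4 and 9.25 FPKM in Ep1, against 2.20, 2.40, 1.71 and 2.60 FPKM in Ctrl. Hspa1a had 14.1 and 5.14 FPKM in Ep1, against 2.55, 1.91, 1.11 and 1.5 FPKM in Ctrl. The transcripts of these neighbouring genes are nearly identical, so the split of fragments between them is uncertain, but both were higher in each Ep1 library than in any Ctrl library. Their changes were 2.21 ± 0.28 (SE, limma adjusted p = 0.0141) for Hspa1b and 1.83 ± 0.37 (SE, limma adjusted p = 0.0400) for Hspa1a. Hspb1 had 13 and 7.82 FPKM in Ep1, against 4.14, 4.34, 3.93 and 2.19 FPKM in Ctrl. Bag3 had 7.28 and 5.45 FPKM in Ep1, against 3.49, 2.90, 2.34 and 2.73 FPKM in Ctrl. In all 4 genes Ep1 1 was above Ep1 2, and Ep1 2 was above every Ctrl library. The changes were 1.28 ± 0.26 (SE, limma adjusted p = 0.0408) for Hspb1 and 0.93 ± 0.15 (SE, limma adjusted p = 0.0221) for Bag3. Hspa1b was called without each library in turn (change 1.67 without Ep1 1 and 2.74 without Ep1 2). Bag3 was not called without Ep1 1, Ctrl 2 and Ctrl 4 (change 0.75 without Ep1 1 and 0.86 to 1.0 without 1 Ctrl library), Hspa1a was called only without Ep1 2 (change 2.48) and Hspb1 was called in none of the 6 fits (changes 0.95 to 1.62). The count of the list was 1 without Ep1 1, 4 without Ep1 2, and 1 without Ctrl 2 or Ctrl 4 to 5 without Ctrl 3.

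In the unfolded protein and integrated stress response, 3 of 25 tested genes rose, with a median of 0.23. Atf4, the transcription factor translated when initiation is slowed, had 55.0 and 45.1 FPKM in Ep1, against 34.0, 34.9, 28.5 and 35.2 FPKM in Ctrl. Its target Atf3 had 5.25 and 1.90 FPKM in Ep1, against 0.295, 0.279, 0.0294 and 0.110 FPKM in Ctrl, and was tested only because of its Ep1 level. Sdf2l1, an endoplasmic reticulum chaperone, had 18.0 and 11.4 FPKM in Ep1, against 7.19, 8.08, 6.68 and 9.15 FPKM in Ctrl. Ep1 1 was the highest library for each of the 3 genes. Their changes were 0.58 ± 0.12 (Atf4), 1.86 ± 0.30 (Atf3) and 0.82 ± 0.19 (Sdf2l1), with limma adjusted p of 0.0384, 0.0220 and 0.0490. The number of the list's genes that rose was 0 without Ep1 1, 2 without Ep1 2, and 0 without Ctrl 1, Ctrl 2 or Ctrl 4 to 6 without Ctrl 3.

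Among p53 targets and genes of cell cycle arrest, 5 of 19 tested genes rose, with a median of 0.28. Cdkn1a, the cyclin-dependent kinase inhibitor p21, had 25.5 and 16.4 FPKM in Ep1, against 2.01, 2.55, 2.56 and 3.42 FPKM in Ctrl. Both Ep1 libraries were over 4 times the highest Ctrl library. Its change of 2.58 ± 0.20 (SE, limma adjusted p = 0.00402) was 2.27 without Ep1 1, 2.88 without Ep1 2 and 2.49 to 2.67 without 1 Ctrl library. The stress sensors Gadd45a, Gadd45b and Gadd45g rose too. Gadd45b had 35.1 and 13.9 FPKM in Ep1, against 6.17, 5.46, 7.04 and 4.82 FPKM in Ctrl, and Ep1 1 was far above Ep1 2. Gadd45a had 5.04 and 4.04 FPKM in Ep1, against 2.71, 1.49, 1.68 and 2.02 FPKM in Ctrl. Gadd45g had 34.1 and 19.5 FPKM in Ep1, against 10.8, 12.8, 7.98 and 9.20 FPKM in Ctrl. Pmaip1, the BH3-only protein Noxa, was tested through its Ep1 level of 2.99 and 2.24 FPKM, against 0.401, 0.519, 0.810 and 0.651 FPKM in Ctrl. The changes were 0.91 ± 0.17 for Gadd45a, 1.76 ± 0.33 for Gadd45b, 1.28 ± 0.25 for Gadd45g and 1.18 ± 0.15 for Pmaip1, with limma adjusted p of 0.0325, 0.0344, 0.0358 and 0.0128. The count of the list was 1 without Ep1 1, 5 without Ep1 2, and 1 without Ctrl 4 to 7 without Ctrl 3.

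Genes induced by glucocorticoids, the steroid hormones of the adrenal cortex, were higher by similar amounts in the 2 Ep1 libraries. Of 19 tested genes of the list, 11 rose and 1 fell, and the median change was 0.52 (0.53 in Ep1 1 and 0.55 in Ep1 2). Of the 17 members with at least 1 FPKM in Ctrl, 9 rose and 1 fell. Fkbp5, an Hsp90 partner that damps the receptor of these hormones, had 11.1 and 9.66 FPKM in Ep1, against 2.60, 2.58, 2.44 and 2.96 FPKM in Ctrl. Plin4, a lipid droplet protein tested through its Ep1 level, had 4.22 and 5.70 FPKM in Ep1, against 0.600, 0.516, 0.946 and 0.439 FPKM in Ctrl. Both genes kept their call without each library. Fkbp5 changed by 1.64 ± 0.094 (SE, limma adjusted p = 0.00225) and by 1.55 to 1.73 when 1 Ep1 library was left out. Plin4 changed by 1.87 ± 0.16 (SE, limma adjusted p = 0.00447), and here Ep1 2 was the higher library. Errfi1, a feedback inhibitor of the EGF receptor, had 18.2 and 14.4 FPKM in Ep1, against 8.44, 7.88, 8.40 and 7.83 FPKM in Ctrl. Zbtb16, a zinc finger transcription factor, had 19.5 and 18.1 FPKM in Ep1, against 11.4, 12.3, 10.2 and 11.2 FPKM in Ctrl. Each was above all Ctrl values in both Ep1 libraries. The changes of 0.91 ± 0.10 (SE, limma adjusted p = 0.00748) for Errfi1 and 0.69 ± 0.085 (SE, limma adjusted p = 0.0116) for Zbtb16 were 0.75 and 0.64 without Ep1 1, where neither was called. Zbtb16 was also not called without Ctrl 4 (0.69). Tsc22d3 (the leucine zipper Gilz), the pyruvate dehydrogenase kinase Pdk4, the transcription factor Klf9, the NF-kB inhibitor Nfkbia, Cdkn1a, Mt1 and Lcn2 also rose. The 4 named first here changed by between 0.45 (Klf9) and 0.53 (Tsc22d3). Cdkn1c, the cell cycle inhibitor p57, fell to 2.20 and 1.78 FPKM in Ep1, against 4.30, 4.15, 3.44 and 3.55 FPKM in Ctrl. The number of the list's genes that rose was 3 without Ep1 1, 7 without Ep1 2, and 6 without Ctrl 4 to 13 without Ctrl 3.

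Of 19 tested circadian clock genes, 1 rose (5.26%) and 2 fell (10.5%), with a median of -0.022. The shares over all tested genes were 4.96% and 2.02%. Cry1, a repressor in the clock's negative limb, had 11.6 and 8.46 FPKM in Ep1, against 6.63, 6.01, 5.40 and 5.36 FPKM in Ctrl. The nuclear receptor Nr1d2 had 18.5 and 20.2 FPKM in Ep1, against 27.9, 27.0, 29.7 and 27.1 FPKM in Ctrl. The groups did not overlap in either gene. Cry1 changed by 0.68 ± 0.13 and Nr1d2 by -0.51 ± 0.075 (SE, limma adjusted p = 0.0358 and 0.0183), and neither was called without Ep1 1, Ctrl 1, Ctrl 2 or Ctrl 4. Without Ep1 1 the changes were 0.47 (Cry1) and -0.45 (Nr1d2), and without 1 Ctrl library 0.64 to 0.73 (Cry1) and -0.52 to -0.48 (Nr1d2). The time of day at which the tissue was taken is not given. The number that rose was 0 without Ep1 1, 2 without Ep1 2, and 0 without Ctrl 1, Ctrl 2 or Ctrl 4 to 2 without Ctrl 3, and the number that fell was 0 without Ep1 1, 1 without Ep1 2, and 0 without Ctrl 2 or Ctrl 4 to 5 without Ctrl 3.

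Of 36 cytokine, chemokine and other NF-kB target genes, 26 were tested, 18 rose and 1 fell. As 14 of the tested genes were below 1 FPKM in Ctrl and entered only through Ep1, they had to be higher there, and of the 12 members with at least 1 FPKM in Ctrl 6 rose and 1 fell. The 10 genes that stayed below 1 FPKM in both groups include the cytokines Tnf, Il1b and Il6. The chemokine Ccl4 had 5.59 and 4.07 FPKM in Ep1, against 0.0874, 0, 0 and 0.0899 FPKM in Ctrl. Its neighbour Ccl3 had 5.22 and 3.28 FPKM in Ep1, against 0.0753, 0.143, 0 and 0.155 FPKM in Ctrl. Both chemokines, which draw monocytes and other leukocytes, were close to 0 in every Ctrl library and clearly present in both Ep1 libraries. Their changes were 2.47 ± 0.15 (SE, limma adjusted p = 0.00225) for Ccl4 and 2.24 ± 0.18 (SE, limma adjusted p = 0.00402) for Ccl3. Ccl4 changed by 2.28 without Ep1 1 and Ccl3 by 1.97. The monocyte chemokine Ccl2 had 2.61 and 1.74 FPKM in Ep1, against 0, 0, 0.111 and 0 FPKM in Ctrl, where 3 libraries are listed at 0. It changed by 1.62 ± 0.17 (SE, limma adjusted p = 0.00670), and by 1.42 without Ep1 1, where it was not called. The related Ccl7 and Ccl12 rose as well, to 1.36 and 0.656 FPKM (Ccl7) and 1.58 and 1.85 FPKM (Ccl12) in Ep1, against at most 0.204 (Ccl7) and 0.353 FPKM (Ccl12) in Ctrl.

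Socs3, which damps cytokine signals through Stat3, had 8.73 and 6.40 FPKM in Ep1, against 0.918, 1.26, 0.897 and 0.903 FPKM in Ctrl. Cd14, the co-receptor for bacterial lipopolysaccharide, had 15.1 and 8.36 FPKM in Ep1, against 1.73, 1.83, 1.68 and 1.82 FPKM in Ctrl. Lcn2, a siderophore-binding acute-phase protein, had 2.24 and 2.23 FPKM in Ep1, against 0.0220, 0.0832, 0.0964 and 0.0226 FPKM in Ctrl. All 3 genes were above every Ctrl library in both Ep1 libraries, and for Lcn2 the Ep1 values were nearly equal. Their changes were 2.09 ± 0.14 for Socs3, 2.15 ± 0.20 for Cd14 and 1.61 ± 0.13 for Lcn2, with limma adjusted p of 0.00225, 0.00521 and 0.00429. Socs3 and Cd14 kept their call without each library (1.90 and 1.76 without Ep1 1), and Lcn2 was not called without Ep1 1 (1.61). The NF-kB subunits Nfkb2 and Relb, the NF-kB regulator Bcl3, the adhesion molecule Icam1, the prostaglandin synthase Ptgs2, the transcription factor Cebpd, the serpin Serpina3n and the receptors Tlr2 and Osmr also rose, by 0.67 (Tlr2) to 1.5 (Cebpd). Cxcl12, the chemokine that holds haematopoietic cells and guides neurons, fell to 3.51 and 4.04 FPKM in Ep1, against 7.83, 7.49, 6.98 and 7.75 FPKM in Ctrl (change -0.84 ± 0.082, SE, limma adjusted p = 0.00651, and -0.76 without Ep1 1, where it was not called). The number that rose was 4 without Ep1 1, 16 without Ep1 2, and 7 without Ctrl 4 to 18 without Ctrl 3. Of 11 tested interferon-stimulated genes 0 were called by limma in either direction (1 higher at an unadjusted p below 0.05, 0 with voom weights), and the member with the smallest p, Gbp2, had 1.30 and 1.6 FPKM in Ep1 and 0.963, 0.499, 1.03 and 0.637 FPKM in Ctrl (limma adjusted p = 0.139).

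Markers of blood cells beside these values were low or uneven. Of the 13 neutrophil and monocyte markers only Csf3r was tested, and it fell to 1.21 and 1.26 FPKM in Ep1, against 2.22, 1.85, 2.35 and 2.17 FPKM in Ctrl. The summed level of all 13 was 3.34 and 2.59 FPKM in Ep1 and 2.40 to 3.63 FPKM in Ctrl, with Ly6g at 0 in all 6 libraries, while S100a9 stood at 1.16 and 0.671 FPKM in Ep1 and 0.111, 0, 0.363 and 0 FPKM in Ctrl. The 13 lymphocyte markers summed to 11.3 and 12.6 FPKM in Ep1 and 19.2 to 23.6 FPKM in Ctrl, with Cd8a at 0 throughout. Their main contributor, the T cell receptor constant gene Trbc2, fell to 9.62 and 11.7 FPKM in Ep1, against 17.4, 19.0, 21.1 and 21.3 FPKM in Ctrl (change -0.83 ± 0.11, SE, limma adjusted p = 0.0148, -0.70 without Ep1 1 and -0.88 to -0.79 without 1 Ctrl library, and not called without Ep1 1 and Ctrl 4). Of 6 tested red blood cell markers 3 rose in Ep1. The haemoglobin gene Hbb-bs had 82.0 and 40.1 FPKM in Ep1, against 11, 10.7, 10.9 and 15.4 FPKM in Ctrl. Hba-a1 had 79.9 and 35.5 FPKM in Ep1, against 11.3, 12.4, 11.4 and 14.1 FPKM in Ctrl. Ep1 1 was about a factor of 2 above Ep1 2 in both. The changes were 2.18 ± 0.29 (SE, limma adjusted p = 0.0157) for Hbb-bs and 2.04 ± 0.29 (SE, limma adjusted p = 0.0192) for Hba-a1, and 1.67 (Hbb-bs) and 1.46 (Hba-a1) without Ep1 1. Hbb-bt rose with them, and the summed level of the 9 red cell markers was 278 and 166 FPKM in Ep1 and 102 to 121 FPKM in Ctrl. The haemoglobin genes have near-identical copies, so single values are uncertain. The number of red cell markers that rose was 1 without Ep1 1, 4 without Ep1 2, and 0 without Ctrl 2 to 4 without Ctrl 3. What part blood in the tissue had in the other results was not tested.

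Among markers of microglia, the resident macrophages of the brain, more fell than rose. Of 15 tested markers 7 fell, and Cd14, also counted above, was the 1 that rose. The list median was -0.029 (0.096 in Ep1 1 and -0.15 in Ep1 2), and its summed level was 166 and 152 FPKM in Ep1 and 157 to 170.4 FPKM in Ctrl. P2ry12, the ADP receptor of surveying microglia, had 4.33 and 5.07 FPKM in Ep1, against 11.9, 12.1, 17.8 and 12.9 FPKM in Ctrl. Both Ep1 values were below the range of the Ctrl libraries, of which Ctrl 3 was the highest. P2ry12 changed by -1.35 ± 0.16 (SE, limma adjusted p = 0.0116), by -1.25 without Ep1 1, where it was not called, by -1.44 without Ep1 2 and by -1.22 without Ctrl 3. Csf1r, the receptor for the survival factors of microglia, had 12.7 and 12.8 FPKM in Ep1, against 17.6, 17.6, 18.1 and 18.4 FPKM in Ctrl. The fractalkine receptor Cx3cr1 had 6.17 and 6.68 FPKM in Ep1, against 9.13, 8.80, 9.07 and 8.90 FPKM in Ctrl. Their changes of -0.46 ± 0.061 and -0.43 ± 0.066 (SE, limma adjusted p = 0.0142 and 0.0204) were much smaller than that of P2ry12. Tmem119, the lectin gene Siglech and the transcription factor Sall1 fell by 0.43 (Sall1) to 0.74 (Tmem119) on the log2(FPKM + 1) scale. The number that fell was 0 without Ep1 1, 3 without Ep1 2, and 1 without Ctrl 2 or Ctrl 4 to 7 without Ctrl 3.

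Immediate early genes are transcribed within minutes of neuronal activity or growth factor signals. Of 28 tested, 8 rose, with a median of 0.46 that came mostly from Ep1 1 (0.77 in Ep1 1 and 0.19 in Ep1 2). The change was above 0 in 21 of the 28. At an unadjusted p below 0.05 the limma fit had 15 higher and 2 lower, and voom weights called 11 higher and 1 lower. Over all 14728 tested genes, 3622 had such a p in either direction, and voom weights called 1024 higher and 594 lower. Maff, a small Maf transcription factor below 1 FPKM in Ctrl, had 6.00 and 3.42 FPKM in Ep1, against 0.645, 0.505, 0.439 and 0.366 FPKM in Ctrl. The early growth response factor Egr3 had 97.8 and 53.5 FPKM in Ep1, against 26.6, 25.0, 29.3 and 29.7 FPKM in Ctrl. Fosb, a partner in the AP-1 complex, had 16.6 and 6.39 FPKM in Ep1, against 2.35, 2.37, 1.78 and 2.26 FPKM in Ctrl. In each, both Ep1 libraries were above the Ctrl range and Ep1 1 was the highest. The changes were 1.91 ± 0.19 for Maff, 1.36 ± 0.22 for Egr3 and 1.84 ± 0.32 for Fosb, with limma adjusted p of 0.00661, 0.0237 and 0.0275. Maff was called without each library, whereas Egr3 and Fosb were not called without Ep1 1, Ctrl 1, Ctrl 2 and Ctrl 4, with 0.93 (Egr3) and 1.22 (Fosb) without Ep1 1 and 1.32 to 1.40 (Egr3) and 1.78 to 1.87 (Fosb) without 1 Ctrl library. Ier3, Ier5, Fosl2 and the phosphatase gene Dusp5 also rose, by 0.70 (Fosl2) to 1.22 (Ier3). Fos itself had 19.9 and 10.9 FPKM in Ep1, against 9.62, 10.0, 10.2 and 10.1 FPKM in Ctrl, so that Ep1 1 stood high and Ep1 2 lay just above Ctrl, and it was not called (change 0.52 ± 0.20, SE, limma adjusted p = 0.169). Arc, a regulator of AMPA receptor trafficking, had 85.8 and 44.9 FPKM in Ep1 and 50.5, 47.3, 45.5 and 53 FPKM in Ctrl, with Ep1 1 above and Ep1 2 below the Ctrl range. Other activity genes that were not called changed either way (chosen after their values were seen). Egr1 had 43.2 and 35.3 FPKM in Ep1, against 52.9, 49.7, 40.9 and 54.4 FPKM in Ctrl (change -0.33 ± 0.14, SE, limma adjusted p = 0.201). Nr4a1 changed by -0.13 and Npas4 by -0.19 (limma adjusted p = 0.584 and 0.520), and in both Ep1 1 lay within the Ctrl range. Junb changed by 0.40 and Egr4 by 0.20 (limma adjusted p = 0.438 and 0.752). The number that rose was 2 without Ep1 1, 13 without Ep1 2, and 2 without Ctrl 4 to 8 without Ctrl 3.

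Among neuropeptide and granin genes 5 of 23 rose. Of these 23, 2 averaged below 1 FPKM in Ctrl and were tested through Ep1, where they had to be higher. Of the 21 members with at least 1 FPKM in Ctrl, 3 rose. Nptx1, a pentraxin related to Nptx2, had 159 and 134 FPKM in Ep1, against 85.8, 82.4, 72.8 and 83.3 FPKM in Ctrl. The granin-like Vgf, a precursor of secreted peptides, had 181 and 129 FPKM in Ep1, against 82.0, 78.0, 53.9 and 90.9 FPKM in Ctrl. Neither gene's groups overlapped. Nptx1 changed by 0.84 ± 0.10 (SE, limma adjusted p = 0.0116) and by 0.72 without Ep1 1, where it was not called, and Vgf changed by 1.02 ± 0.23 (SE, limma adjusted p = 0.0464). The peptide genes Gal (galanin) and Nts (neurotensin) rose to 2.38 and 0.963 FPKM (Gal) and 1.65 and 2.53 FPKM (Nts) in Ep1, against 0.0802 to 0.301 FPKM (Gal) and 0.811 to 1.02 FPKM (Nts) in Ctrl, and were tested through Ep1. The number that rose was 1 without Ep1 1, 6 without Ep1 2, and 2 without Ctrl 1, Ctrl 2 or Ctrl 4 to 6 without Ctrl 3. Among genes of the synapse, 1 of 26 vesicle and release genes rose (Bsn, a scaffold of the active zone, change 0.32 ± 0.070, SE, limma adjusted p = 0.0445) and 1 of 23 glutamate and GABA-A receptor genes fell (Grm3, change -0.47 ± 0.092, SE, limma adjusted p = 0.0348), beside 4.96% of all tested genes that rose and 2.02% that fell. At an unadjusted p below 0.05 the limma fit had 8 receptor genes lower and 2 higher, and voom weights called 7 lower. Of the vesicle and release genes 2 were higher and 2 lower at an unadjusted p below 0.05, and voom weights called 1 higher and 2 lower. Over all 14728 tested genes, 3622 had such a p in either direction, and voom weights called 1024 higher and 594 lower. The receptor count was 0 without Ep1 1, 0 without Ep1 2, and 0 without Ctrl 1, Ctrl 2 or Ctrl 4 to 7 without Ctrl 3, and Bsn was called without Ctrl 3 only (change 0.29). Of 15 general markers of neurons 0 were called by limma (1 higher at an unadjusted p below 0.05, 0 with voom weights), with summed levels of 2215 and 2162 FPKM in Ep1 and 2096 to 2279 FPKM in Ctrl.

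Markers of striatal projection neurons were lower in Ep1, more so in Ep1 2. Of 15 tested markers 7 fell, with a median of -0.85 (-0.56 in Ep1 1 and -1.21 in Ep1 2), and their summed level was 226 and 134 FPKM in Ep1 and 246 to 289 FPKM in Ctrl. Adora2a, the adenosine receptor of the indirect pathway, had 3.54 and 1.03 FPKM in Ep1, against 10.6, 9.06, 7.89 and 10.2 FPKM in Ctrl. The dopamine receptor gene Drd2 had 2.69 and 1.22 FPKM in Ep1, against 7.52, 5.96, 6.78 and 7.34 FPKM in Ctrl. Drd1, of the direct pathway, had 3.0 and 1.55 FPKM in Ep1, against 4.06, 4.83, 5.84 and 4.97 FPKM in Ctrl. Each was below the Ctrl range in both Ep1 libraries and lowest in Ep1 2. The changes were -1.77 ± 0.30 for Adora2a, -1.46 ± 0.20 for Drd2 and -0.88 ± 0.20 for Drd1, with limma adjusted p of 0.0271, 0.0148 and 0.0451. Without Ep1 2 they were -1.19, -1.10 and -0.56, and without Ep1 1 -2.35, -1.83 and -1.21. Drd1 was not called without any single Ctrl library (-0.96 to -0.81). Leaving out Ctrl 1, Ctrl 2 or Ctrl 4 ended the call of Adora2a (-1.85 to -1.72 without 1 Ctrl library), and leaving out Ctrl 4 that of Drd2 (-1.44). The orphan receptor gene Gpr6 had 1.59 and 0.687 FPKM in Ep1, against 3.89 to 4.72 FPKM in Ctrl. Syndig1l and the phosphodiesterase gene Pde10a fell as well, with changes of -1.42 (Syndig1l) and -0.81 (Pde10a). The number that fell was 6 without Ep1 1, 5 without Ep1 2, and 0 without Ctrl 4 to 7 without Ctrl 3.

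**Figure D3:**
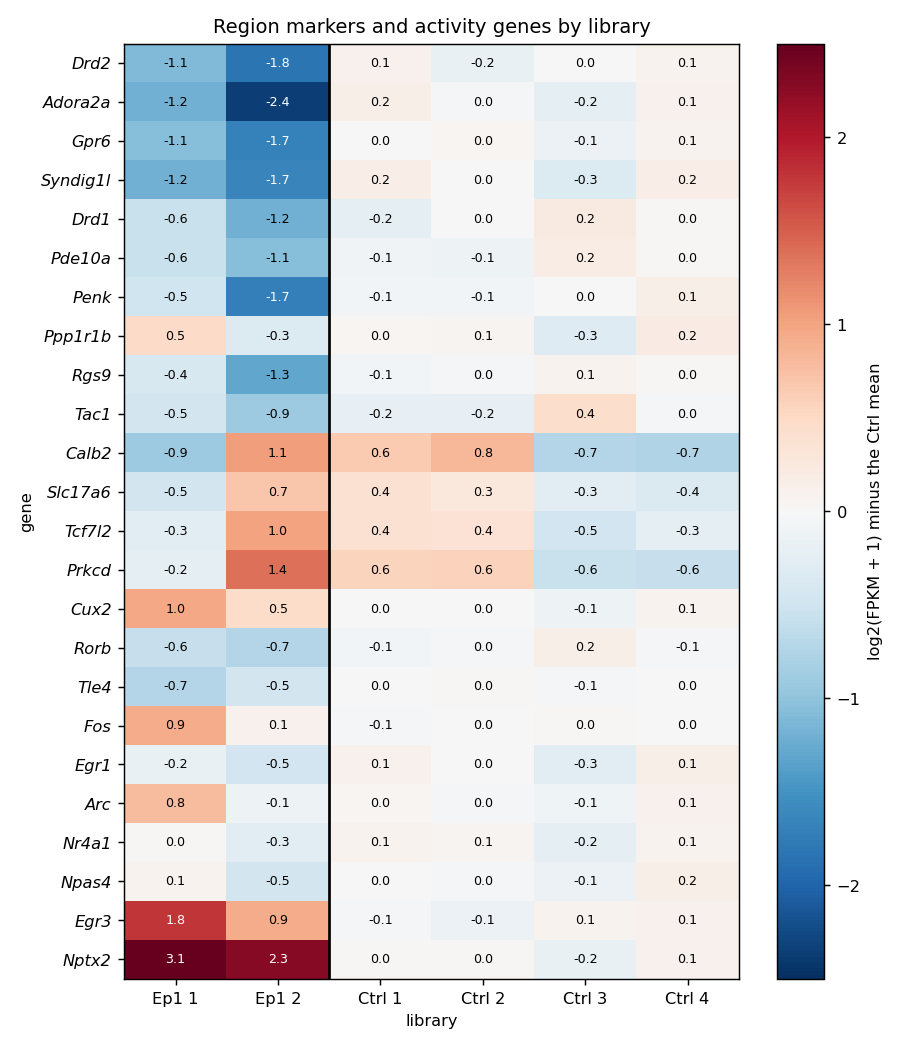
Map of region markers and activity genes, with 1 gene a line and the libraries of Ep1 at 10 J/cm2 left of those of Ctrl. Colours and printed values are log2(FPKM + 1) in that library minus the Ctrl mean, red above it and blue below. Adora2a had 3.54 and 1.03 FPKM in Ep1, below the 7.89 to 10.6 FPKM of Ctrl, while Calb2 was high in Ep1 2, Ctrl 1 and Ctrl 2 and low in the other libraries.

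Markers of other regions also differed between libraries of 1 group. Calb2, the calcium-binding protein calretinin, had 3.19 and 15.2 FPKM in Ep1 and 11.3, 12.9, 3.70 and 3.68 FPKM in Ctrl. Slc17a6, the vesicular glutamate transporter of thalamus and brainstem, had 3.71 and 9.46 FPKM in Ep1 and 7.40, 6.70, 4.38 and 4.0 FPKM in Ctrl. In both genes Ep1 2 was above and Ep1 1 below all Ctrl libraries, and Ctrl 1 and Ctrl 2 were above Ctrl 3 and Ctrl 4. The same order of the libraries was seen in Prkcd, a kinase of thalamic and amygdalar neurons (chosen after its values were seen), with 2.93 and 10.9 FPKM in Ep1 and 5.71, 5.83, 2.10 and 2.05 FPKM in Ctrl, except that Ep1 1 lay within Ctrl. Choroid plexus markers summed to 324 and 442 FPKM in Ep1 and 379 to 724 FPKM in Ctrl, mostly through Ttr (transthyretin), with 309 and 424 FPKM in Ep1 and 684, 701, 418 and 367 FPKM in Ctrl. What part differences in the brain regions sampled had in the striatal values was not tested. In the cortical list, of 14 tested markers 1 rose (7.14%) and 2 fell (14.3%), beside 4.96% and 2.02% of all tested genes. Cux2, of the upper layers, had 29.4 and 20.3 FPKM in Ep1, against 14.7, 14.7, 13.3 and 15.5 FPKM in Ctrl (change 0.71 ± 0.14, SE, limma adjusted p = 0.0364). Rorb, of layer 4 and also a clock gene, had 3.02 and 2.62 FPKM in Ep1, against 4.72, 4.87, 5.67 and 4.78 FPKM in Ctrl (change -0.65 ± 0.096, SE, limma adjusted p = 0.0185). Tle4, of the deep layers, had 6.37 and 7.97 FPKM in Ep1, against 11.5, 11.7, 10.9 and 11.3 FPKM in Ctrl (change -0.60 ± 0.092, SE, limma adjusted p = 0.0198). None of the 3 was called without Ep1 1 (0.45 for Cux2, -0.73 for Rorb and -0.46 for Tle4), and leaving out Ctrl 2 or Ctrl 4 also ended each call. Without 1 Ctrl library the changes were 0.67 to 0.74 (Cux2), -0.68 to -0.60 (Rorb) and -0.62 to -0.59 (Tle4). Wfs1 was the 1 of 12 hippocampal, thalamic and cerebellar markers that rose (change 0.55 ± 0.11, SE, limma adjusted p = 0.0371). That is 8.33% of the list, beside 4.96% of all tested genes, and rests on this 1 gene. When 1 Ctrl library was left out, Wfs1 was called without Ctrl 3 only.

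Vessel genes moved in both directions. Of 21 tested endothelial markers 5 rose and 5 fell, with a median of 0.061 and summed levels of 367 and 342 FPKM in Ep1 and 357 to 377 FPKM in Ctrl. Among 27 barrier transporters 6 rose and 5 fell, and of 21 junction genes 3 rose. Cdh5, the VE-cadherin of endothelial adherens junctions, had 9.20 and 7.07 FPKM in Ep1, against 3.08, 3.36, 3.01 and 2.85 FPKM in Ctrl. Pecam1, the platelet-endothelial adhesion molecule, had 6.16 and 4.6 FPKM in Ep1, against 2.70, 2.74, 2.53 and 2.08 FPKM in Ctrl. Both were above Ctrl in each Ep1 library. Cdh5 changed by 1.16 ± 0.11 (SE, limma adjusted p = 0.00638), by 0.99 without Ep1 1 and by 1.33 without Ep1 2, and was called each time. Pecam1 changed by 0.86 ± 0.13 (SE, limma adjusted p = 0.0202), by 0.68 without Ep1 1 and by 0.79 to 0.89 without 1 Ctrl library, and was not called without Ep1 1, Ctrl 2 and Ctrl 4. The adherens junction gene Nectin1 rose too (change 0.93 ± 0.18, SE, limma adjusted p = 0.0334), whereas Cldn5 was higher than all Ctrl libraries in both Ep1 libraries and did not pass the test (change 0.40 ± 0.17, SE, limma adjusted p = 0.194). Plvap, a protein of fenestrated endothelium, had 8.01 and 8.46 FPKM in Ep1 and 9.21, 6.84, 4.71 and 6.81 FPKM in Ctrl, and the groups overlapped (limma adjusted p = 0.484). The number of junction genes that rose was 1 without Ep1 1, 2 without Ep1 2, and 1 without Ctrl 2 or Ctrl 4 to 3 without Ctrl 3.

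The transporter genes that fell include organic anion and drug transporters. Slco1a4, an organic anion transporter of the capillary wall (chromosome 6 from 141805440 to 141856199), had 2.86 and 4.03 FPKM in Ep1, against 9.99, 10.3, 11 and 9.97 FPKM in Ctrl. Slc22a8, the organic anion transporter Oat3, had 2.52 and 2.31 FPKM in Ep1, against 7.13, 6.83, 8.12 and 7.51 FPKM in Ctrl. In both genes the 2 Ep1 values lay far below the lowest Ctrl value. Slco1a4 changed by -1.36 ± 0.11 (SE, limma adjusted p = 0.00429) and Slc22a8 by -1.29 ± 0.087 (SE, limma adjusted p = 0.00225), and both were called without each library, with -1.17 and -1.55 (Slco1a4) and -1.34 and -1.25 (Slc22a8) without Ep1 1 and without Ep1 2. Abcb1a, the drug efflux pump P-glycoprotein, had 4.09 and 3.95 FPKM in Ep1, against 6.42, 6.55, 5.99 and 6.29 FPKM in Ctrl (change -0.54 ± 0.071, SE, limma adjusted p = 0.0133, -0.56 without Ep1 1 and -0.56 to -0.53 without 1 Ctrl library, and not called without Ep1 1, Ctrl 2 and Ctrl 4). The amino acid transporter gene Slc38a5 fell as well, with a change of -0.63. Transporters of nutrients were among those that rose. Slc2a1, the glucose transporter Glut1, had 43.3 and 37.3 FPKM in Ep1, against 31.2, 30.3, 26.8 and 26.6 FPKM in Ctrl. Mfsd2a, which carries docosahexaenoic acid and restrains transcytosis, had 13.4 and 15.8 FPKM in Ep1, against 9.36, 9.17, 9.95 and 8.62 FPKM in Ctrl. Their changes of 0.47 ± 0.10 (SE, limma adjusted p = 0.0421) for Slc2a1 and 0.60 ± 0.090 (SE, limma adjusted p = 0.0192) for Mfsd2a were called again only without Ctrl 3 (0.44 and 0.63). Slc7a5, Slc7a1, the creatine transporter Slc6a8 and the efflux pump Abcc4 rose by 0.31 (Slc7a1) to 0.60 (Slc6a8). The number of transporters that rose was 0 without Ep1 1, 1 without Ep1 2, and 0 without Ctrl 1, Ctrl 2 or Ctrl 4 to 7 without Ctrl 3, and the number that fell was 2 without Ep1 1, 4 without Ep1 2, and 2 without Ctrl 2 or Ctrl 4 to 6 without Ctrl 3.

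Itm2a, a membrane protein of endothelial and T cells, fell to 11.6 and 11 FPKM in Ep1, against 24.7, 24.5, 26.1 and 27.9 FPKM in Ctrl. The groups were far apart and each group was tight, and the change of -1.12 ± 0.078 (SE, limma adjusted p = 0.00241) was -1.15 without Ep1 1 and -1.08 without Ep1 2. Tek, the receptor of the angiopoietins, fell to 1.0 and 1.28 FPKM in Ep1, against 2.36, 2.27, 2.71 and 2.76 FPKM in Ctrl (change -0.72 ± 0.11, SE, limma adjusted p = 0.0191). Its context-dependent antagonist Angpt2 rose to 3.84 and 2.99 FPKM in Ep1, against 0.360, 0.503, 0.754 and 0.338 FPKM in Ctrl, and was tested through Ep1 (change 1.57 ± 0.16, SE, limma adjusted p = 0.00661). Adgrl4, an adhesion receptor of endothelium, had 5.72 and 5.21 FPKM in Ep1, against 2.32, 2.56, 2.47 and 2.16 FPKM in Ctrl (change 0.94 ± 0.088, SE, limma adjusted p = 0.00593). Ly6a rose and Cd34 fell among the endothelial markers, with changes of 0.93 (Ly6a) and -0.52 (Cd34). Without Ep1 1 the changes were -0.63 (Tek), 1.43 (Angpt2) and 0.88 (Adgrl4), and none of the 3 was called. Tek was also not called without Ctrl 1, Ctrl 2 or Ctrl 4 (-0.76 to -0.69). Of 22 angiogenesis genes 6 rose, which were Angpt2, Adamts1, Apln, Dll4, Pdgfb and Vegfa, and 1 fell, which was Tek. As 3 of the 22 averaged below 1 FPKM in Ctrl, they were tested through Ep1 and had to be higher there. Among the other 19 genes 4 rose and 1 fell. The growth factor Vegfa had 31.4 and 24.6 FPKM in Ep1, against 20.0, 18.7, 20.0 and 20.7 FPKM in Ctrl (change 0.47 ± 0.10, SE, limma adjusted p = 0.0455). The number of endothelial markers that rose was 1 without Ep1 1, 3 without Ep1 2, and 2 without Ctrl 2 or Ctrl 4 to 5 without Ctrl 3, and the number that fell was 2 without Ep1 1, 4 without Ep1 2, and 2 without Ctrl 2 or Ctrl 4 to 6 without Ctrl 3. The number of angiogenesis genes that rose was 0 without Ep1 1, 5 without Ep1 2, and 1 without Ctrl 4 to 6 without Ctrl 3.

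**Figure D4:**
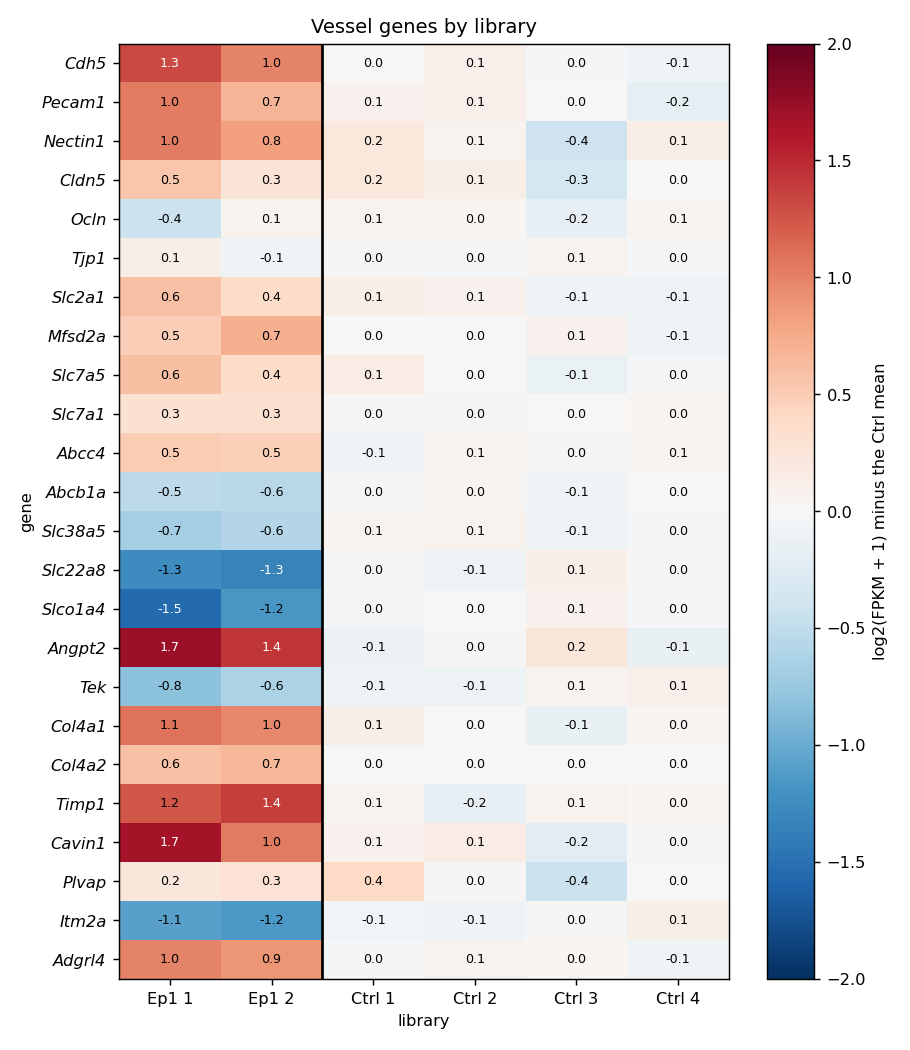
Map of vessel genes, with 1 gene a line and the libraries of Ep1 at 10 J/cm2 left of those of Ctrl. Colours and printed values are log2(FPKM + 1) in that library minus the Ctrl mean, red above it and blue below. Cdh5 was higher in Ep1 (9.20 and 7.07 FPKM) than in Ctrl (2.85 to 3.36 FPKM), and Slco1a4 was lower in Ep1 (2.86 and 4.03 FPKM) than in Ctrl (9.97 to 11 FPKM).

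Genes of caveolae and of the vascular matrix were higher in part. Of 26 caveola and transcytosis genes 3 rose (Cavin1, Cavin2 and Ehd2), which is 11.5%, beside 4.96% of all tested genes. Cavin1, the coat protein of caveolae, had 16.8 and 10.6 FPKM in Ep1, against 4.99, 5.25, 3.84 and 4.56 FPKM in Ctrl (change 1.35 ± 0.18, SE, limma adjusted p = 0.0142, 1.05 without Ep1 1 and 1.28 to 1.40 without 1 Ctrl library, and not called without Ep1 1 and Ctrl 4). Of 25 matrix and basement membrane genes 8 rose, with a median of 0.26 (0.24 in Ep1 1 and 0.30 in Ep1 2). Here 3 of the 25 averaged below 1 FPKM in Ctrl and were tested through Ep1, where they had to be higher. Among the other 22 genes 7 rose. Col4a1, a collagen of the basement membrane, had 17.7 and 16.1 FPKM in Ep1, against 8.55, 7.74, 7.0 and 8.11 FPKM in Ctrl. Its partner chain Col4a2 had 19.1 and 20.3 FPKM in Ep1, against 12.5, 12.3, 12.5 and 12.3 FPKM in Ctrl. Timp1, an inhibitor of matrix metalloproteinases, had 5.45 and 6.05 FPKM in Ep1, against 1.82, 1.41, 1.85 and 1.80 FPKM in Ctrl. None of the 3 overlapped between the groups, and Ep1 1 and Ep1 2 lay close together in each. The changes were 1.02 ± 0.091 (Col4a1), 0.63 ± 0.062 (Col4a2) and 1.31 ± 0.10 (Timp1), with limma adjusted p of 0.00468, 0.00661 and 0.00402. Timp1 was called without each library, and the 2 collagens were not called without Ep1 1 (0.95 for Col4a1 and 0.67 for Col4a2). Fn1, Nid1, Tgm2 and Timp3 rose by 0.40 (Fn1) to 0.97 (Tgm2). The number of matrix genes that rose was 1 without Ep1 1, 6 without Ep1 2, and 5 without Ctrl 2 or Ctrl 4 to 8 without Ctrl 3, and that of caveola genes was 0 without Ep1 1, 1 without Ep1 2, and 0 without Ctrl 4 to 4 without Ctrl 3.

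Actin-binding and mechanosensing genes rose in number, each by a moderate amount. Of 37 tested 16 rose, with a median of 0.39 (0.54 in Ep1 1 and 0.32 in Ep1 2). Ezr (ezrin), which ties the membrane to actin, had 40.4 and 35.8 FPKM in Ep1, against 20.2, 20.3, 16.7 and 20.2 FPKM in Ctrl. Ccn1, a matricellular target of Yap and Srf, had 16.0 and 10.1 FPKM in Ep1, against 3.69, 4.6, 3.98 and 4.82 FPKM in Ctrl. The non-muscle myosin gene Myh9 had 19.0 and 16.6 FPKM in Ep1, against 9.29, 9.31, 6.87 and 8.83 FPKM in Ctrl. Both Ep1 libraries were above all Ctrl libraries in each, and for Ezr the Ctrl spread came from Ctrl 3. The changes were 0.94 ± 0.10 (Ezr), 1.39 ± 0.18 (Ccn1) and 0.98 ± 0.13 (Myh9), with limma adjusted p of 0.00744, 0.0126 and 0.0138. Without Ep1 1 they were 0.86, 1.08 and 0.88, and none was called. Myh9 was also not called without Ctrl 4 (0.99). The others that rose include Actn4, Cnn2, Flna, Klf4, Msn, Rhoc, Tagln2, Tpm1, Tpm4, Vcl, Vim and Zyx, with changes of 0.39 (Tpm1) to 0.93 (Tpm4). The number that rose was 0 without Ep1 1, 10 without Ep1 2, and 2 without Ctrl 4 to 17 without Ctrl 3.

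Of 29 genes of hypoxia and glycolysis 8 rose, with a median of 0.25. Of these 29, 2 averaged below 1 FPKM in Ctrl and were tested through Ep1, where they had to be higher. Among the other 27 genes 6 rose. Adm, the vasodilator peptide adrenomedullin, was below 1 FPKM in Ctrl and had 6.13 and 4.08 FPKM in Ep1, against 0.535, 0.708, 0.586 and 0.696 FPKM in Ctrl. Pfkfb3, which drives glycolysis, had 12.3 and 9.35 FPKM in Ep1, against 4.27, 4.13, 5.08 and 5.19 FPKM in Ctrl. Slc2a3, the neuronal glucose transporter, had 44.7 and 33.9 FPKM in Ep1, against 21.0, 21.2, 21.9 and 22.9 FPKM in Ctrl. All 3 were higher in Ep1 1 than in Ep1 2 and higher in both than in Ctrl. The changes were 1.88 ± 0.15 (Adm), 1.05 ± 0.13 (Pfkfb3) and 0.81 ± 0.11 (Slc2a3), with limma adjusted p of 0.00402, 0.0118 and 0.0161. Adm was called without each library, and Pfkfb3 (0.87) and Slc2a3 (0.62) were not called without Ep1 1. Slc2a3 was also not called without Ctrl 2 (0.80) or Ctrl 4 (0.84). Hk2, Ldha, Hif3a, Vegfa and Slc2a1 rose as well. The number of hypoxia and glycolysis genes that rose was 1 without Ep1 1, 4 without Ep1 2, and 2 without Ctrl 2 or Ctrl 4 to 9 without Ctrl 3.

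Of 23 cholesterol synthesis and uptake genes 4 rose, with a median of 0.28. Mvd, mevalonate diphosphate decarboxylase, had 26.0 and 19.4 FPKM in Ep1, against 10.0, 10.9, 7.76 and 11.1 FPKM in Ctrl. Mvd was higher in each Ep1 library than in any Ctrl library. It changed by 1.11 ± 0.16 (SE, limma adjusted p = 0.0186), and Fdft1 and Hsd17b7, which also rose, by 0.51 and 0.51. The number that rose was 0 without Ep1 1, 3 without Ep1 2, and 0 without Ctrl 1 or Ctrl 4 to 11 without Ctrl 3.

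Markers of other glia moved in both directions. Of 15 astrocyte markers 2 rose (Aldh1l1 and Vim), which is 13.3%, beside 4.96% of all tested genes. Gfap, the intermediate filament of reactive astrocytes, had 70.3 and 59.8 FPKM in Ep1, against 39.6, 38.3, 22.5 and 26.2 FPKM in Ctrl. Both Ep1 values were above Ctrl, but the Ctrl values differed among themselves and the change of 1.05 ± 0.24 (SE) missed the threshold (limma adjusted p = 0.0512). Of 14 oligodendrocyte markers 4 fell. Ugt8a, which makes the myelin lipid galactocerebroside, had 10.9 and 11.5 FPKM in Ep1, against 20.0, 19.3, 18.4 and 16.4 FPKM in Ctrl. Opalin, a membrane protein of myelinating cells, had 5.34 and 4.98 FPKM in Ep1, against 11.8, 10.2, 9.66 and 8.48 FPKM in Ctrl. The groups did not overlap in either gene. Their changes of -0.68 ± 0.091 (SE, limma adjusted p = 0.0142) for Ugt8a and -0.84 ± 0.12 (SE, limma adjusted p = 0.0182) for Opalin were -0.65 and -0.88 without Ep1 1, where neither was called. Without Ctrl 2 neither was called either (-0.66 and -0.83), nor was Opalin without Ep1 2 (-0.79). Ermn and Aspa fell too, with changes of -0.63 (Ermn) and -0.72 (Aspa). Mbp, the myelin basic protein gene, had 282 and 288 FPKM in Ep1 and 362, 365, 239.9 and 279.5 FPKM in Ctrl, which overlapped (limma adjusted p = 0.745). The number of oligodendrocyte markers that fell was 0 without Ep1 1, 1 without Ep1 2, and 0 without Ctrl 2 to 4 without Ctrl 3 or Ctrl 4, and the number of astrocyte markers that rose was 0 without Ep1 1, 1 without Ep1 2, and 0 without Ctrl 2 or Ctrl 4 to 4 without Ctrl 3. None of 11 markers of oligodendrocyte precursors was called by limma, while 2 were lower at an unadjusted p below 0.05 and voom weights called 1 (Lhfpl3, with the smallest p, had a limma adjusted p of 0.0506). Among pericyte and smooth muscle markers Rgs5 fell, as 1 of 9 tested (change -0.39 ± 0.070, SE, limma adjusted p = 0.0274), and among fibroblast and meningeal markers Mgp rose, as 1 of 9 (change 0.83 ± 0.18, SE, limma adjusted p = 0.0433). Each is 1 gene and 11.1% of its list, beside 2.02% of all tested genes that fell and 4.96% that rose. When 1 Ctrl library was left out, Rgs5 was called without Ctrl 3 only and Mgp without Ctrl 4 only. Mgp was not called with a constant prior variance either.

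Genes of mitochondrial respiration showed no calls. Of 13 mitochondrially encoded and 35 nuclear-encoded oxidative phosphorylation genes 0 passed the test by limma in either direction. At an unadjusted p below 0.05 the limma fit had 1 of the mitochondrially encoded genes higher and 0 of the nuclear-encoded ones, and voom weights called 0 of either list. The nuclear-encoded list had a median of 0.068, and Ndufs8, a subunit of complex I with the smallest p in it, had 38.8 and 38.5 FPKM in Ep1 and 43.0, 41.2, 42.8 and 43.1 FPKM in Ctrl (limma adjusted p = 0.250). The mitochondrially encoded list had a median of -0.21, with sums of 23090.0 and 22145 FPKM in Ep1 and 21914 to 34623 FPKM in Ctrl, where Ctrl 3 was the highest.

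Across the 37 lists, 17 had members that rose and none that fell by limma. In these 17 lists, 16 of 370 tested members were lower at an unadjusted p below 0.05, and voom weights called 6 lower. Over all 14728 tested genes 2.02% fell by limma, and voom weights called 594 lower and 1024 higher. The lists are grouped here by their own limma calls, and a gene in 2 lists was counted in each. The 6 lists with members that fell and none that rose held 64 tested members, of which 3 were higher at an unadjusted p below 0.05 and 0 were called higher with voom weights.

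**Figure D5:**
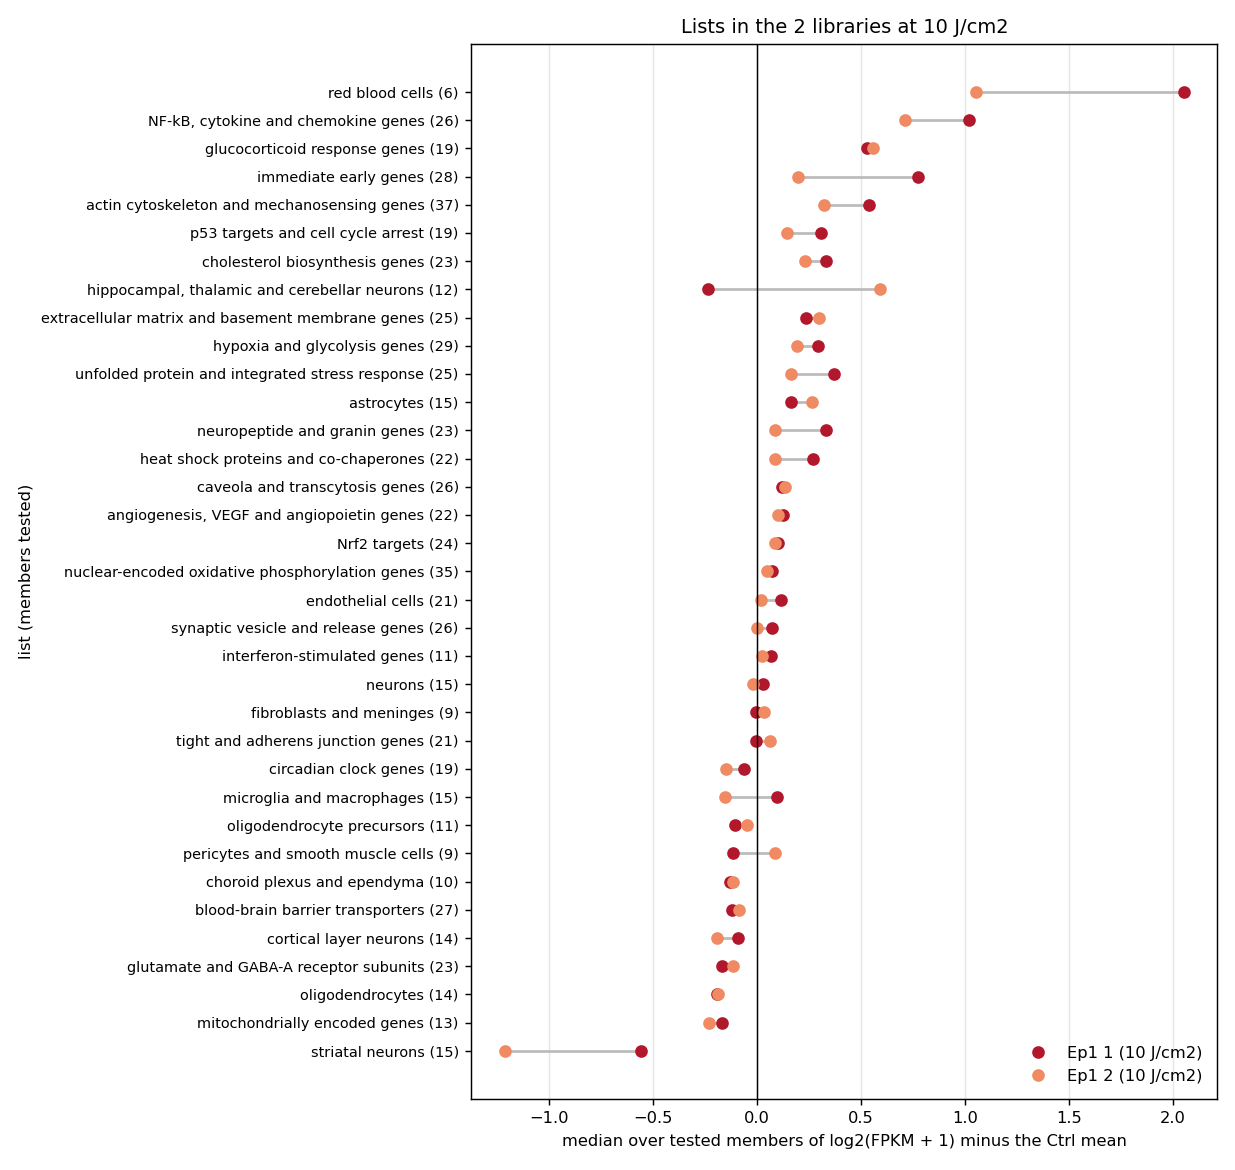
Median over the tested members of each list with at least 5 of them, of log2(FPKM + 1) in a library minus the Ctrl mean. The points are Ep1 1 and Ep1 2 at 10 J/cm2, joined by a line, and the number of tested members follows each name. The NF-kB, cytokine and chemokine list lay at 1.02 in Ep1 1 and 0.71 in Ep1 2, where 14 of its 26 tested members had passed the filter only through Ep1, and the striatal list at -0.56 in Ep1 1 and -1.21 in Ep1 2.

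The 2 Ep1 libraries at 20 J/cm2 allowed the energies to be compared directly. By limma in a fit of 3 groups, 1 of 15047 genes differed between Ep1 at 20 and at 10 J/cm2 (0.00665%), while 1080 had an unadjusted p below 0.05. The gene was AC149090.1, an annotated transcript on an unplaced scaffold. It had 138 and 128 FPKM in Ep1 at 20 J/cm2, against 59.0 and 54.5 FPKM in Ep1 at 10 J/cm2, and 63.6 to 65.2 FPKM in Ctrl. The libraries at 20 J/cm2 lay above every Ctrl library and those at 10 J/cm2 below every one, and the difference between the energies was 1.22 (95% interval 1.04 to 1.39) with a limma adjusted p of 0.00309. Without Ep1 2, Ep1 3 or Ep1 4 the limma fit called 0 genes, with 710, 830 and 672 genes at an unadjusted p below 0.05. Alad, the enzyme of the second step of haem synthesis, had 33.3 and 33.1 FPKM in Ep1 at 20 J/cm2, against 16.8 and 20.0 FPKM in Ep1 at 10 J/cm2, and 27.6 to 30.1 FPKM in Ctrl. It was called lower in Ep1 at 10 J/cm2 than in Ctrl (change -0.63 ± 0.087, SE, limma adjusted p = 0.0160, -0.51 without Ep1 1 and -0.65 to -0.61 without 1 Ctrl library, and not called without Ep1 1, Ctrl 2 and Ctrl 4). Its difference between the energies was 0.82 (95% interval 0.61 to 1.03), which missed the threshold (limma adjusted p = 0.135).

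For the leading genes of the comparison with Ctrl the intervals between the energies were wide. Hmox1 differed between 20 and 10 J/cm2 by 0.13 (95% interval -0.39 to 0.65), with 20.2 and 27.2 FPKM in Ep1 at 20 J/cm2. Hspa1b had 20.6 and 27.3 FPKM in Ep1 at 20 J/cm2 and a difference of 0.74 (95% interval -0.012 to 1.49). Drd2 had 0.550 and 0.898 FPKM in Ep1 at 20 J/cm2 and a difference of -0.74 (95% interval -1.26 to -0.21). The limma adjusted p-values were 0.966 (Hmox1), 0.692 (Hspa1b) and 0.604 (Drd2), which does not show that the energies acted alike.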

How the data were processed

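RNA sequencing values of 6 mouse brain libraries were used, 2 of Ep1 at 10 J/cm2 and 4 of Ctrl, and 2 of Ep1 at 20 J/cm2 for the comparison of energies. The values are FPKM as the authors deposited them, that is, fragments of a gene divided by the length its row gives and by a single total of its library. Bowtie 0.12.2 and mm8 appear in the submitters' processing notes with no role given, while 99.4% of 55227 gene identifiers had the start and end they have in GENCODE M21 (GRCm38). The counter and strandedness are not given in the sources used here, so overlapping and antisense genes could not be told apart. Each column carries a letter and a number, and taking C for Ctrl, E for Ep1 and the number for the replicate is an inference. FPKM multiplied by length gave whole fragments for 100% of values, to within 0.01, and hence the depths. In all 6 libraries 23495 of the 55780 genes were at 0.

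Genes whose mean FPKM was 1 or more in Ep1 or Ctrl were tested as log2(FPKM + 1) with limma 3.58.1 (R 4.3.3, trended and robust empirical Bayes variance), adjusted over all 14728 genes with Benjamini-Hochberg at 0.05. Of these, 624 entered only through Ep1 and 630 only through Ctrl. The steps were tested on simulated data. Python 3.11.15, numpy 2.4.6, pandas 2.3.3 and matplotlib 3.10.9 made the tables and plots. No batch is labelled, and no table of comparisons by the authors was used.

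The rule named the 10 called genes with the largest change in each direction, up to 3 members of each of 37 lists with the smallest p, a fixed set of genes and the genes that differ most between Ep1 1 and Ep1 2, 125 in all, and the called members of the lists are also named. Some of these genes are not reported here. Members and lists were chosen with earlier results of these data known. Other settings were tried for the filter, pseudocount, scaling, weights, variance model and grouping, and each library was left out in turn.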

Additional observations from a re-analysis of the deposited data

Results flagged for a closer look

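In 10 of the 125 named genes 1 of the 4 Ctrl libraries stood apart from the other 3, its gap to the nearest of them taking more of the whole Ctrl range than Dixon's 95% critical value for 4 samples. Chance gives this in about 1 of 20 groups, and the outlying library was Ctrl 3 in 4 of the 10 genes. Ctrl 3 was the highest for P2ry12 (gap 0.831 of the range, 11.9, 12.1, 17.8 and 12.9 FPKM in Ctrl 1 to 4) and Rorb (0.838, 4.72, 4.87, 5.67 and 4.78 FPKM). It was the lowest for Ezr (0.963, 20.2, 20.3, 16.7 and 20.2 FPKM) and Aldh1l1 (0.911, 11.9, 12, 10.4 and 12 FPKM). Both Ep1 libraries lay outside all Ctrl values in these 4 genes, with 4.33 and 5.07 FPKM for P2ry12, 3.02 and 2.62 for Rorb, 40.4 and 35.8 for Ezr and 14.7 and 16.3 for Aldh1l1. Ctrl 2 was the highest for Socs3 (0.942) and the lowest for Timp1 (0.89) and Ndufs8 (0.868). Ctrl 4 was the highest for Hbb-bs (0.92) and Mgp (0.887) and the lowest for AC149090.1 (0.87).

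AC149090.1 also differed between the energies, by 1.22 on the log2(FPKM + 1) scale, with 138 and 128 FPKM in Ep1 at 20 J/cm2, against 59.0 and 54.5 FPKM in Ep1 at 10 J/cm2 (limma adjusted p = 0.00309).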

How the results depend on the processing

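With all 6 libraries 1029 genes were called (731 higher, 298 lower). A pseudocount of 0.1 FPKM, a constant prior variance, a filter on the mean of the 6 libraries, quantile normalization and leaving out mitochondrial genes and CT010467.1 gave 962, 920, 945, 920 and 987. All 8 libraries in 3 groups gave 1551 (1072 higher, 479 lower), voom weights on recovered fragments 1618 (1024 higher, 594 lower), no filter on low values 255 (199 higher, 56 lower) and a change of at least 1 as well 164 (142 higher, 22 lower). Leaving out 1 library gave 54 to 1652 calls, 42 to 1070 higher and 12 to 582 lower. The replicate block gave 738 calls (508 higher, 230 lower), 493 of them shared with the unblocked fit, but only numbers 1 and 2 occur in both groups. The deviations of same-numbered libraries correlated by -0.0227 and 0.0224. With 2 Ep1 libraries the deviations of 1 mirror those of the other, so these values cannot decide whether the numbers pair the libraries. No label ties an Ep1 library to a Ctrl library. Between the energies the calls were 4 without a filter and 0 to 1 with 1 library left out. All 82 called genes among the 125 named kept their direction under every setting. With 1 library left out they could not change it, as their groups did not overlap. Reversals were limited to genes that were not called. Camk2a was -0.0058 after quantile normalization. With the replicate block Calb2 was -0.66, Atp6v1c1 0.13 and Slc17a6 -0.20. With 1 library left out Atp5a1 ran from -0.015 to 0.82, Cd4 from -0.82 to 0.016, Calb2 from -0.90 to 1.05, Mir6955 from -1.37 to 0.39, Atp6v1c1 from -0.86 to 0.54, Slc17a6 from -0.46 to 0.70 and Arc from -0.12 to 0.80. The causes were not tested. The spread of 2 Ep1 libraries limits the precision.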

Other observations

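Further genes, chosen after their values were seen, rose without belonging to a list. Wnt10a, a Wnt ligand, had 23.3 and 16.4 FPKM in Ep1, against 5.31, 3.98, 3.87 and 4.57 FPKM in Ctrl (change 1.93 ± 0.16, SE, limma adjusted p = 0.00429). Tnfrsf12a, the receptor of the cytokine Tweak, had 11 and 8.25 FPKM in Ep1, against 2.06, 2.29, 2.03 and 2.09 FPKM in Ctrl (change 1.76 ± 0.11, SE, limma adjusted p = 0.00225). Epor, the erythropoietin receptor, had 11.4 and 9.54 FPKM in Ep1, against 3.54, 3.62, 3.66 and 3.82 FPKM in Ctrl (change 1.29 ± 0.087, SE, limma adjusted p = 0.00225). Ep1 1 was the highest library for each of these 3 genes, and no Ctrl library came near the Ep1 values. Spns2, which exports sphingosine-1-phosphate from endothelial cells, had 37.1 and 31.6 FPKM in Ep1, against 15.8, 15.9, 13.7 and 14.6 FPKM in Ctrl (change 1.14 ± 0.096, SE, limma adjusted p = 0.00429). Ucp2, a mitochondrial carrier, had 9.22 and 9.39 FPKM in Ep1, against 4.66, 4.33, 4.10 and 4.49 FPKM in Ctrl (change 0.93 ± 0.074, SE, limma adjusted p = 0.00402). All 5 were called without each library in turn, as were Slc4a11 (1.76), Metrnl (1.69), Sema4a (1.32), Pxdn (1.30), Thrsp (1.25) and Ppp1r3c (1.03), with their changes on the log2(FPKM + 1) scale in parentheses.

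Genes that fell include Nr3c1, the glucocorticoid receptor, which had 8.64 and 10.4 FPKM in Ep1, against 15.1, 15.3, 17.3 and 15 FPKM in Ctrl (change -0.67 ± 0.097, SE, limma adjusted p = 0.0182, and -0.55 without Ep1 1). Dcx, the microtubule protein of young neurons, had 1.30 and 1.93 FPKM in Ep1, against 3.70, 3.76, 4.71 and 3.69 FPKM in Ctrl (change -0.93 ± 0.13, SE, limma adjusted p = 0.0179, and -0.76 without Ep1 1). Npy1r, a receptor of neuropeptide Y, had 3.28 and 5.33 FPKM in Ep1, against 8.64, 9.92, 11.1 and 10.3 FPKM in Ctrl (change -1.08 ± 0.16, SE, limma adjusted p = 0.0199, and -0.79 without Ep1 1). Here Ep1 2 lay nearer to Ctrl than Ep1 1 in all 3. The microglial receptor genes P2ry13 and Gpr34, which are in no list, fell with those of the microglia list, with changes of -0.77 (P2ry13) and -0.78 (Gpr34). Without Ep1 1, Ctrl 2 or Ctrl 4 none of these 5 genes was called, with changes of -0.69 to -0.62 (Nr3c1), -0.96 to -0.86 (Dcx), -1.14 to -1.03 (Npy1r), -0.84 to -0.72 (P2ry13) and -0.86 to -0.66 (Gpr34) without 1 Ctrl library.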
